A study of Homo sapiens with 9 samples.

Results

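HUES9 human embryonic stem cells that had differentiated for 13 days with 10 µM AA147 were compared with cells that had differentiated for 13 days with 10 µM RP22. In the study's labels AA147, spelled AA47 in 1 protocol and taken to be the same compound, is an activator of ATF6, and RP22 is its analog without that activity. The comparison took 6 of the 9 RNA sequencing libraries, all 3 of each treatment, and every gene of the deposited count table. The other 3 libraries, of cells at day 1 before treatment, entered only as an alternative fit. Both groups shared the cell line, used at passages 44 to 46 in the sample labels (a protocol gives a wider range), growth on mitomycin-treated mouse embryonic fibroblasts, embryoid bodies formed by centrifugation and plated on Matrigel, and daily medium with the compound from a stock in DMSO. Cells given DMSO alone were not analysed here, so each difference is between the 2 compounds and says nothing of either against solvent. The labels call the 3 replicates of a group independent experiments, all from this 1 cell line. They also call the cells embryonic stem cells, although some markers of that state, POU5F1 and NANOG among them, were low or absent at day 13 with AA147, as given below.

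ATF6 is a membrane protein of the endoplasmic reticulum (ER). When unfolded proteins build up there, it moves to the Golgi apparatus, where the site-1 and site-2 proteases cut it and free a transcription factor that enters the nucleus. With the CCAAT-binding factor NF-Y it binds the ER stress response element (ERSE) before genes of ER chaperones and of the disposal of misfolded proteins. The other arms of the unfolded protein response run through IRE1 (gene ERN1), which splices XBP1 mRNA, and through PERK (gene EIF2AK3), which slows translation and raises ATF4.

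The 6 libraries held between 9223039 and 10118267 reads, and 17936 gene symbols had at least 1 read in them. Levels are given as CPM, the read count relative to library size scaled by TMM (trimmed mean of M values, a factor per library that centres most genes), as read from each library. These values compare a gene between libraries, not genes with each other. Replicate 1 stood apart in both groups. Over genes, the chi-square per degree of freedom was 28.0 and 26.9 between RP22 replicate 1 and RP22 replicates 2 and 3, against 2.39 between those 2. It was 9.98 and 10.5 between AA147 replicate 1 and the other AA147 libraries, against 5.08 between those. On the log2(CPM + 1) scale, 374 tested genes were at least 2-fold above replicates 2 and 3 in RP22 replicate 1, and 233 at least 2-fold below. In AA147 replicate 1 these numbers were 303 and 16. Of these genes, 126 were above in replicate 1 of both groups at once, and 0 were below in both. A further 9 were above with AA147 and below with RP22, and 3 the reverse. Where omitting 1 of the 6 libraries ends a call or moves a printed log2 fold change or list value by over 1.5 times, the text says so. Ratios and bounds for genes with few reads are given over the full groups only. Because the samples are bulk RNA, fewer cells of a type and less RNA per cell cannot be told apart.

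Of 14293 genes tested, 4264 (29.8%) were higher with AA147 and 4600 (32.2%) were lower (edgeR quasi-likelihood F test, Benjamini-Hochberg adjusted p under 0.05). These shares over all tested genes are the background for each count below. They differ by expression level, as the next paragraph gives, and no list or motif group was matched for level. For 69.9% of tested genes the 2 groups did not overlap in either direction. The falls were larger than the rises. At least 2-fold changes were 1201 rises and 2588 falls, and at least 8-fold changes were 53 rises and 918 falls. Of the genes called lower, 97 had no read in any AA147 library. Giving each of them 3 reads over the AA147 group as a lower limit left both counts of falls as they were. These genes passed the read filter only through their RP22 reads. That outcome was thus largely fixed in advance and lends the counts no support. Without replicate 1 of both groups, 4185 of the higher and 4472 of the lower genes kept their call and direction.

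The share of genes that rose was higher at higher expression levels. Of the 70 genes with a mean above 1000 CPM over both groups, 64 were higher and 0 lower (median log2 fold change 1.64, or 1.20 by library totals). Between 100 and 1000 CPM, 56.3% of 2335 genes were higher and 16.7% lower, with a median of 0.33 that became -0.12 by library totals. Between 10 and 100 CPM the shares were 31.2% and 29.1% of 8229 genes, and between 1 and 10 CPM they were 9.04% and 48.1% of 3450 genes. The genes at least 2-fold higher held 32.6 to 33.9% of the reads in the AA147 libraries and 12.8 to 14.3% in the RP22 libraries. TMM set against this moved the zero point, with factors of 0.848 to 0.864 for AA147 and 1.13 to 1.19 for RP22. Scaled by library totals alone, the median log2 fold change of all tested genes was -0.49 in place of -0.03, and the calls were 1897 higher and 8527 lower, which is 18.2% in place of 48.1% of calls higher. All 1897 of those and all 4600 lower calls were called alike under both scalings, and 227 genes were higher by TMM and lower by totals. A rise of less than about 0.45 on the log2 scale therefore depends on the scaling, and the sentences below say where a direction turned.

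**Figure D1:**
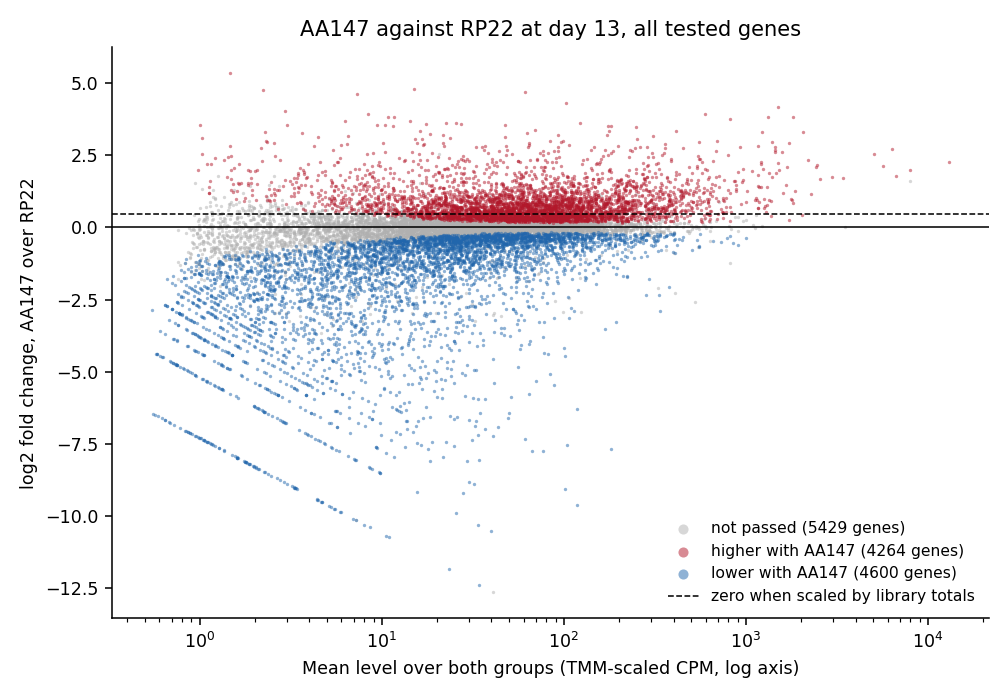
Mean TMM-scaled CPM over both groups (log axis) against the log2 fold change of AA147 over RP22 for the 14293 tested genes, with 4264 genes higher in red, 4600 lower in blue and the rest in grey. Above 1000 CPM 64 of 70 genes are higher and 0 lower, although most rises lie at lower levels, 2571 of them between 10 and 100 CPM. Of the falls of at least 8-fold, 9 lie between 100 and 1000 CPM, 0 above, and the rest below 100 CPM. The dashed line marks where zero lies when libraries are scaled by their totals, so red points below it are lower under that scaling.

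The ERSE is the DNA element through which ATF6 is known to act, so the promoters that carry it are shown for the 5 ER genes of highest RPKM (reads relative to gene length and library size) with AA147 that hold it. Each line gives the 250 bases before the RefSeq gene start, read 5′ to 3′ on the gene's strand from build GRCh38.p14, with the ERSE (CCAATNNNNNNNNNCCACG or its reverse complement) in capitals. CALR lies at chr19:12938359-12938608 on the plus strand, HSP90B1 at chr12:103930160-103930409 on the plus strand, HSPA5 at chr9:125241344-125241593 on the minus strand, CANX at chr5:179698679-179698928 on the plus strand and XBP1 at chr22:28800570-28800819 on the minus strand.
CALR: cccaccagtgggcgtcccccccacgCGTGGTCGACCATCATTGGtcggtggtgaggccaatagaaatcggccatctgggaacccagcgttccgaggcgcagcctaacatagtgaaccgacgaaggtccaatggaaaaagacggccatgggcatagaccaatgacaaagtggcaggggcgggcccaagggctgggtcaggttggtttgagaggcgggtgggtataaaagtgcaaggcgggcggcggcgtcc
HSP90B1: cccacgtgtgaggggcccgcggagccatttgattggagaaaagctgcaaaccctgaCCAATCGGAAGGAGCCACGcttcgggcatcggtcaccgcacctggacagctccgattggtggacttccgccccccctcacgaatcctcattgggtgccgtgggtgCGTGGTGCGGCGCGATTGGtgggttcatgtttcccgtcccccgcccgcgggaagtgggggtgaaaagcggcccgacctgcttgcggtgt
HSPA5: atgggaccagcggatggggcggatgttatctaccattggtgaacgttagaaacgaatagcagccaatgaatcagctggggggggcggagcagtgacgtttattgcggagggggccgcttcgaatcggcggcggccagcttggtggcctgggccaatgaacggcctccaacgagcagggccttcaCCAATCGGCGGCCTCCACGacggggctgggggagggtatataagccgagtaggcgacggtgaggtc
CANX: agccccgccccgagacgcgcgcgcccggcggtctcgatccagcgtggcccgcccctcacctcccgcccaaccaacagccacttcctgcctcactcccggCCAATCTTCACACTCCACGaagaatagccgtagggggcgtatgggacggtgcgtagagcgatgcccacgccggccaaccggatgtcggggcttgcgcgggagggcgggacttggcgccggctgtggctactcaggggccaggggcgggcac
XBP1: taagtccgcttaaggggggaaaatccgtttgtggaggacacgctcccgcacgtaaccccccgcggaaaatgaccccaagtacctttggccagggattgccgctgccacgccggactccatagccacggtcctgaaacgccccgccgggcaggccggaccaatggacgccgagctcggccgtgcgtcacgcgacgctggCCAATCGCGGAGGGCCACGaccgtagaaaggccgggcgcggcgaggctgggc
HSP90B1 holds 2 copies, on opposite strands, 194 to 176 and 89 to 71 bases before the start, whereas the copy of HSPA5 lies 66 to 48 bases and that of XBP1 52 to 34 bases before it.

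All 5 of these genes were higher with AA147. HSPA5, which encodes the ER chaperone BiP, stood at 1498, 1731 and 1733 CPM with AA147 against 928, 783 and 835 CPM with RP22. Every AA147 library lay above every RP22 library. The rise was just under 1 log2 unit (log2 fold change 0.96 ± 0.10, adjusted p = 0.00012). Here and below, ± is a standard error derived from the F test, the absolute log2 fold change over the square root of F. HSP90B1, the ER member of the HSP90 family, stood at 2070.0, 2498 and 2416 CPM with AA147 against 1499.8, 1169 and 1256 CPM with RP22 (log2 fold change 0.83 ± 0.12, adjusted p = 0.00065). CALR, a chaperone that binds glycoproteins, stood at 1584, 1815 and 1901 CPM with AA147 against 1059.5, 827 and 869 CPM with RP22 (log2 fold change 0.94 ± 0.12, adjusted p = 0.00033). XBP1 mRNA, which is itself the substrate of IRE1, stood at 231, 265 and 262 CPM with AA147 against 132, 141 and 143 CPM with RP22 (log2 fold change 0.87 ± 0.08, adjusted p = 6.6e-05). These are changes of slightly less than 2-fold, with no overlap between the groups and positive under both scalings.

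Over all genes the ERSE was rare, and most genes with it were higher with AA147. In 22 of 27305 RefSeq windows of 250 bases (0.0806%) the sequence was present, and 14 of those genes were tested. Of the 14, 11 were higher (78.6%) and 0 lower (median log2 fold change 0.82, or 0.37 by library totals). Among the 11580 tested genes with a window, 30.6% were higher and 31.3% lower, with a median of -0.02. The 11 were ALG12, CALR, CANX, CRELD2, FICD, HSP90B1, HSPA5, SERP1, TMEM120A, TRIM5 and XBP1, of which TMEM120A had a negative fold change by library totals. TMEM120A lost its call without AA147 replicate 1, AA147 replicate 3, RP22 replicate 2 or RP22 replicate 3 (adjusted p of 0.092, 0.065, 0.076 and 0.058), and FICD without AA147 replicate 3 (0.053). EIF2A, ERO1LB and ZNF17 also hold the element and did not pass the test, although EIF2A was higher without RP22 replicate 1 (0.24 log2 units). By library totals EIF2A, ERO1LB and ZNF17 had log2 fold changes of -0.30, -0.43 and -0.51. The related ERSE-II (ATTGGNCCACG) was in 0.0513% of windows and in 11 tested genes, of which 7 were higher and 0 lower, with a median of 0.69. HERPUD1, HYOU1 and SDF2L1, which act in ER protein folding and disposal, were among those 7. SDF2L1 lost its call without AA147 replicate 2, RP22 replicate 2 or RP22 replicate 3 (adjusted p of 0.081, 0.075 and 0.058).

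Other motifs searched on both strands gave shares closer to the background. The element TGACGTGG, to which ATF6 also binds, was in 0.667% of windows, and of 91 tested genes 42.9% were higher and 31.9% lower, with a median of 0.12 that became -0.33 by library totals. CCAAT alone, which every ERSE and ERSE-II match contains, was in 33.0% of windows, with 29.0% of its tested genes higher and 32.4% lower. The TEAD motif GGAATG was in 11.9% of windows, with 31.5% and 28.8%, the antioxidant element TGACNNNGC in 11.0%, with 32.9% and 29.9%, and the heat shock pair GAANNTTC in 5.85%, with 30.6% and 31.0%. The CArG box of serum response factor was in 1.14% of windows, and of its 126 tested genes 42.9% were higher and 26.2% lower. Of the 137 members of the ER and secretory lists with a window, 5.84% held an ERSE. A match describes the letters and was not tested as a binding site.

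**Figure D2:**
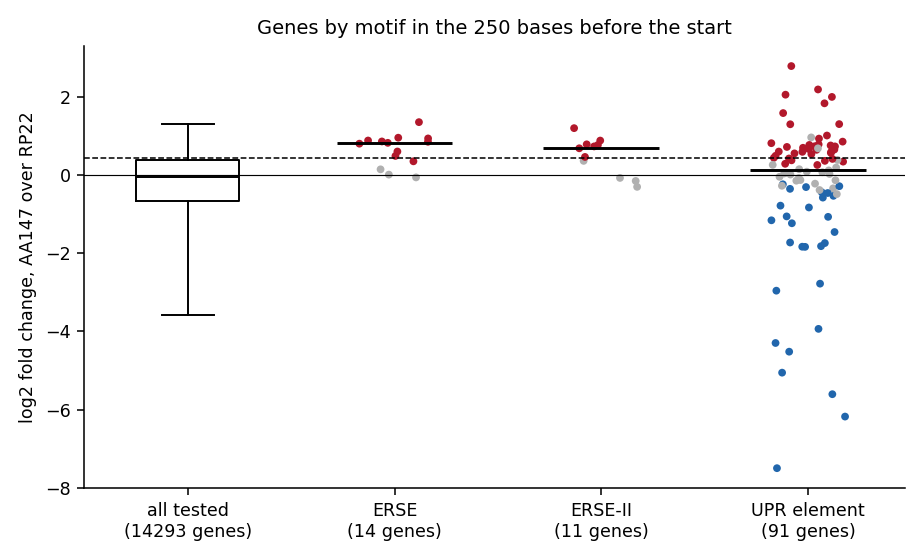
Log2 fold change of AA147 over RP22 for all tested genes (box: quartiles, whiskers: 5th and 95th percentiles) and for single genes with an ERSE, an ERSE-II or the element TGACGTGG in the 250 bases before the start (bars: medians, red: higher, blue: lower, grey: not passed). The medians are 0.82, 0.69 and 0.12, and the last turns negative when the zero is placed at the dashed line, the zero of library totals.

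Most ER folding genes rose, by modest amounts. All 14 ER chaperones tested were higher in the AA147 cells (median log2 fold change 0.92), as 12 were by library totals. The largest rise in that list was in DNAJB9, a cochaperone of BiP, at 85.8, 104 and 101 CPM with AA147 against 43.9, 37.9 and 42.4 CPM with RP22 (log2 fold change 1.23 ± 0.10, adjusted p = 4.0e-05). SIL1, which exchanges the nucleotide of BiP, changed by 1.20 log2 units and stood at 61.1, 57.8 and 59.0 CPM with AA147 against 30.8, 22.0 and 24.7 CPM with RP22. Of 16 disulfide isomerases and ER oxidases 14 were higher and 0 lower (median 0.78; by library totals 9 higher and 1 lower). P4HB, a disulfide isomerase that is also a subunit of collagen prolyl hydroxylase, rose most in this list and stood at 1659.5, 1728 and 1721 CPM with AA147 against 744, 550.2 and 583 CPM with RP22 (log2 fold change 1.44 ± 0.12, adjusted p = 4.8e-05). The 2 members that did not pass were TMX1 (0.21 log2 units, adjusted p = 0.064, negative by library totals, and higher without AA147 replicate 3) and ERO1LB (0.02 log2 units, adjusted p = 0.95, also negative by library totals).

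Of 24 genes of ER-associated degradation, 21 were higher and 2 lower (median 0.48), and by library totals 10 were higher and 5 lower. When AA147 replicate 2, AA147 replicate 3 or RP22 replicate 2 was omitted, 1 gene was lower. UBE2J1, an ER-bound ubiquitin-conjugating enzyme, rose about 4-fold, from 191, 236 and 198 CPM with RP22 to 759.6, 972 and 884 CPM with AA147 (log2 fold change 2.06 ± 0.12, adjusted p = 1.1e-05). EDEM2, which trims mannose from misfolded glycoproteins, rose by 1.49 log2 units. DERL3 fell (log2 fold change -1.56 ± 0.34, adjusted p = 0.0050) on 16 reads in the AA147 libraries and 67 in the RP22 libraries. VCP, the ATPase that pulls proteins from the membrane, was higher by TMM (log2 fold change 0.43 ± 0.07, adjusted p = 0.0014) and -0.02 by library totals.

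Entry into the ER and export from it followed the same direction. Of 25 translocon and signal peptidase genes 21 were higher, and only SEC61A2 was lower (log2 fold change -0.37 ± 0.10, adjusted p = 0.015), a call that was lost without RP22 replicate 2 or RP22 replicate 3, at -0.35 and -0.29. SEC61A1, the pore subunit, stood at 922, 873 and 866 CPM with AA147 against 433, 343 and 359.7 CPM with RP22 (log2 fold change 1.23 ± 0.10, adjusted p = 4.4e-05). The paralog that fell thus differed in direction from the one that rose. Among 31 N-glycosylation genes 22 were higher and 0 lower, led in fold change by DDOST (0.99 log2 units) and MOGS (0.98 log2 units), and 1 was lower without AA147 replicate 1. STT3B, a catalytic subunit of the oligosaccharyltransferase, had a log2 fold change of 0.01 (adjusted p = 0.97), which was -0.45 by library totals. By library totals the 2 lists had 11 genes higher each, with 4 and 8 lower.

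Of 17 COPII coat genes, which form vesicles leaving the ER, 14 were higher and 2 lower, SEC31B and SEC16B (1 without AA147 replicate 2 or RP22 replicate 3). SEC24D, an adaptor for large cargo such as procollagen, was higher (log2 fold change 1.40 ± 0.19, adjusted p = 0.00074). SEC31B stood at 6.97, 6.38 and 7.16 CPM with AA147 against 18.7, 29.5 and 32.2 CPM with RP22 (log2 fold change -1.97 ± 0.22, adjusted p = 0.00017), so its groups were apart in the other direction. Of 15 COPI and KDEL receptor genes 13 were higher and 1 lower. KDELR3, which returns ER residents that leak to the Golgi, stood at 120.1, 125 and 109 CPM with AA147 against 48.6, 24.8 and 25.2 CPM with RP22 (log2 fold change 1.84 ± 0.28, adjusted p = 0.0019), and KDELR2 changed by 1.21 log2 units. By library totals 6 COPII genes were higher and 4 lower, and 9 COPI and KDEL receptor genes were higher and 1 lower.

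Most sensors of the unfolded protein response were higher as well. Of 11 sensors, proteases and CREB3 relatives tested, 9 were higher and 1 lower, and by library totals 4 were higher and 2 lower. ATF6 itself stood at 106, 112 and 105 CPM with AA147 against 90.4, 81.4 and 80.1 CPM with RP22, a small rise (log2 fold change 0.36 ± 0.07, adjusted p = 0.0035) that was -0.10 by library totals. ATF6B changed by 0.46 and by 0.01 under the same scalings. EIF2AK3 was higher by TMM (log2 fold change 0.27 ± 0.06, adjusted p = 0.0061) and lower by library totals, at -0.19 (adjusted p = 0.039). ERN1 stood at 26.6, 31.1 and 27.7 CPM with AA147 against 15.8, 12.4 and 17.5 CPM with RP22 (log2 fold change 0.90 ± 0.14, adjusted p = 0.00096). CREB3, a relative of ATF6 that is also freed by the site-1 and site-2 proteases, had the largest rise among called members, at 101, 109 and 108 CPM with AA147 against 47.5, 47.4 and 44.6 CPM with RP22 (log2 fold change 1.19 ± 0.07, adjusted p = 1.0e-05), and CREB3L4 fell (log2 fold change -0.99 ± 0.16, adjusted p = 0.0012). CREB3L1 had a larger fold change (log2 fold change 1.31 ± 0.48, adjusted p = 0.062) and did not pass, but was higher without RP22 replicate 1, at 2.00.

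ATF4 targets and amino acid genes were mixed. Of 20 tested, 8 were higher and 3 lower, with a median of 0.32 that was -0.14 by library totals. The transporter pair SLC7A5 and SLC3A2, which together carry large neutral amino acids, rose by 1.62 log2 units and 1.15 log2 units. SLC7A5 stood at 1218, 1331 and 1387 CPM with AA147 against 309, 491 and 482 CPM with RP22, with RP22 replicate 1 the lowest library. ATF5, a stress-induced transcription factor, fell, at 17.4, 16.7 and 16.1 CPM with AA147 against 32.2, 34.7 and 33.8 CPM with RP22 (adjusted p = 6.1e-05). ASNS, the asparagine synthetase, did not pass (0.29 log2 units, adjusted p = 0.39, -0.17 by library totals), and its level was lowest in replicate 1 of both groups, at 103 and 72.2 CPM; without both it passed, at 0.24. Without replicate 1 of both groups 14 of the 20 were higher and 4 lower.

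Lists of housekeeping machinery sat near zero, and their direction depended on the scaling. Of 20 cytosolic tRNA synthetases 10 were higher and 1 lower by TMM (median 0.20; 0 lower without RP22 replicate 2 or 3), and 0 higher and 11 lower by library totals (median -0.26). Proteasome genes gave 15 higher and 0 lower of 32 by TMM, 26 higher without replicate 1 of both groups, and 0 higher and 22 lower by library totals. The 76 nuclear-encoded respiratory chain genes gave 29 higher and 2 lower by TMM, 15 higher without AA147 replicate 3 or without RP22 replicate 3, 18 without RP22 replicate 2, and 1 higher and 50 lower by library totals. Cytosolic ribosomal proteins, whose genes have many near-identical pseudogene copies that can take or lend reads, gave 6 higher and 3 lower of 74 by TMM and 0 higher and 68 lower by totals. Their lower calls ranged from 0, when AA147 replicate 1 or 3, or RP22 replicate 2 or 3, was omitted, to 13 when RP22 replicate 1 was, and numbered 15 without replicate 1 of both groups. RPL4 stood at 609, 691 and 645 CPM with AA147 against 573, 694 and 666 CPM with RP22, which overlapped (0.01 log2 units, and -0.45 by library totals).

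**Figure D3:**
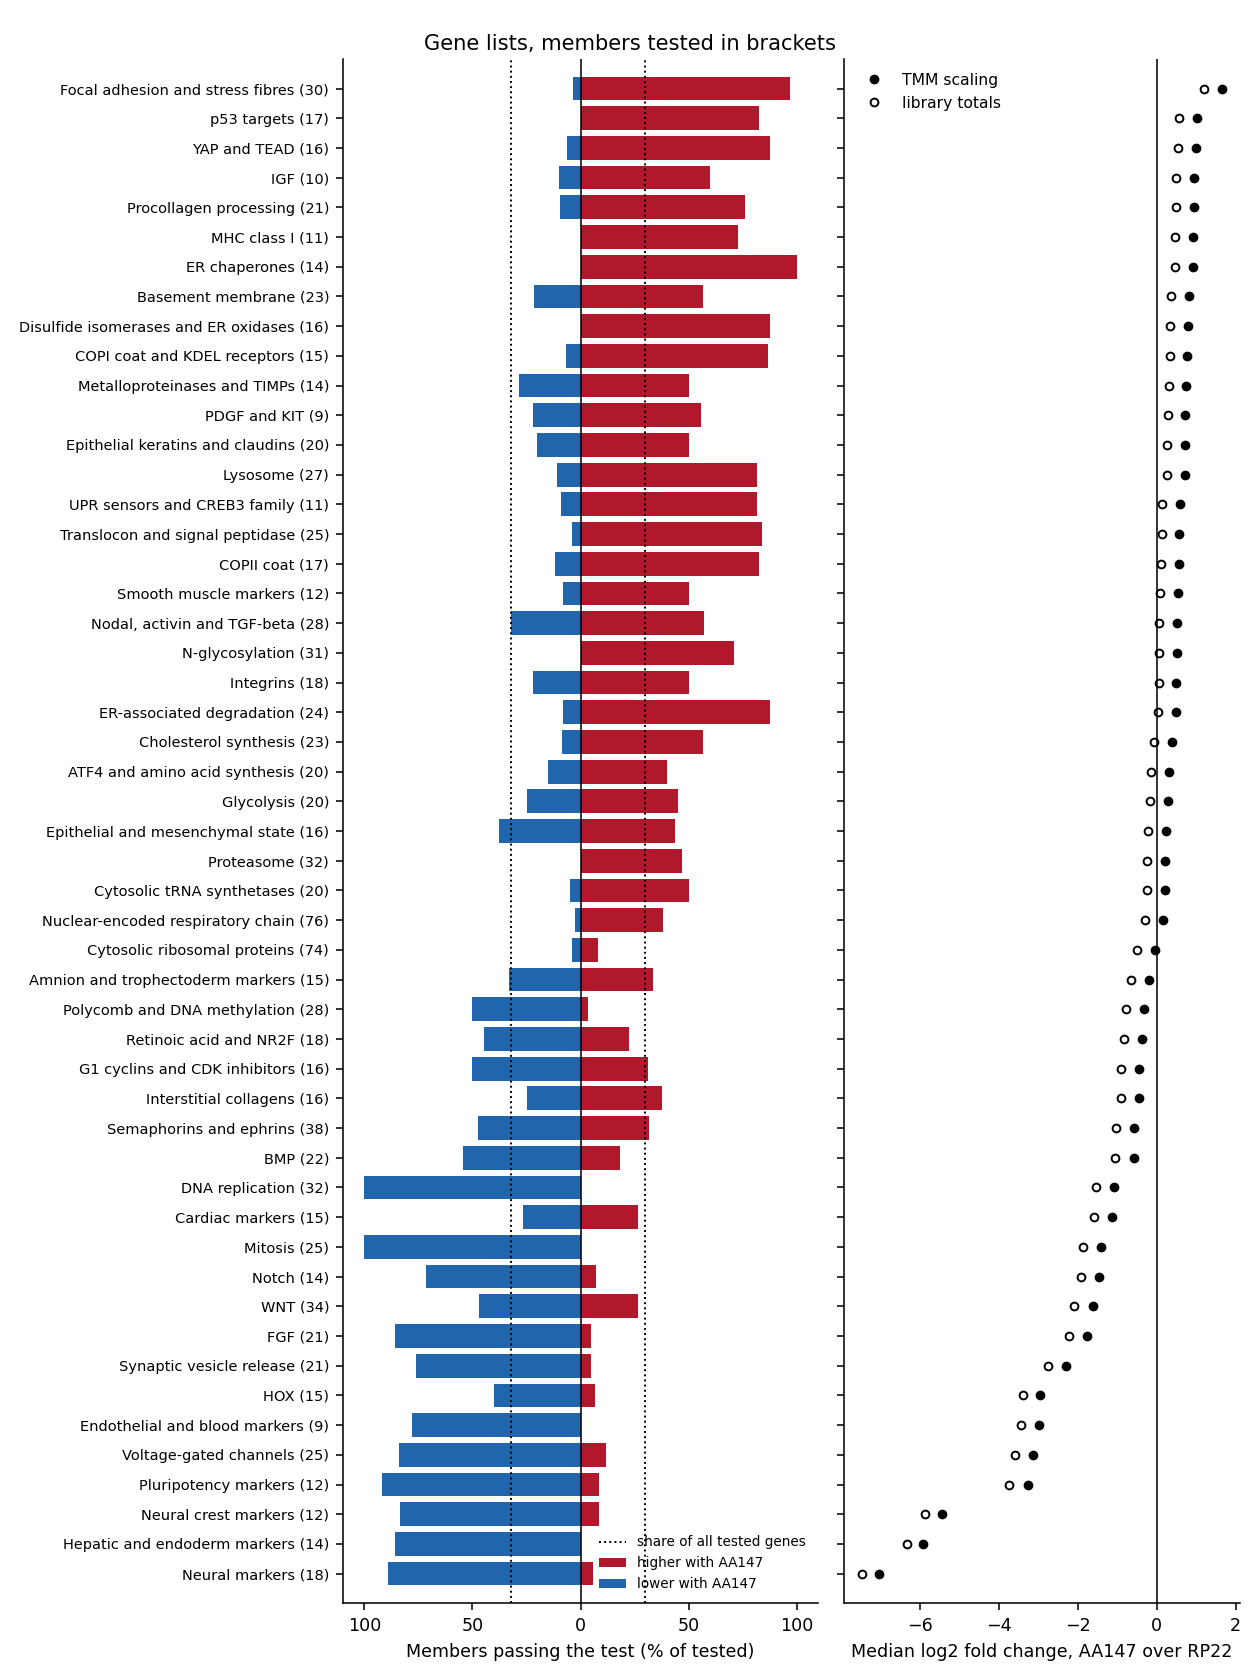
Left, the share of tested members of each of 51 gene lists higher (red) or lower (blue) with AA147, with the share over all tested genes as dotted lines; right, the median log2 fold change scaled by TMM (filled) or by library totals (open). Of the medians, 29 are above and 22 below zero by TMM, and 7 turn negative by library totals, those of the ATF4, tRNA synthetase, proteasome, respiratory chain, cholesterol, glycolysis and epithelial and mesenchymal lists.

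Genes of cell division were lower throughout. All 32 tested DNA replication genes and all 25 mitosis genes were lower, with median log2 fold changes of -1.09 and -1.42, and all were lower under both scalings. TOP2A, the topoisomerase that untangles replicated DNA, stood at 160.0, 109 and 126 CPM with AA147 against 455, 468 and 447 CPM with RP22 (log2 fold change -1.79 ± 0.13, adjusted p = 3.0e-05). CENPF, a kinetochore protein, changed by -1.73 log2 units and ESPL1, the protease that parts sister chromatids, by -1.76 log2 units. MCM2, a subunit of the replicative helicase, stood at 32.6, 23.0 and 25.1 CPM with AA147 against 77.6, 108 and 106 CPM with RP22 (log2 fold change -1.86 ± 0.18, adjusted p = 0.00013). In RP22 replicate 1 MCM2 was lower than in the other RP22 libraries, and still above every AA147 library.

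Most tested targets of p53 were higher with AA147. Of 17 p53 targets 14 were higher and 0 lower (median 1.02), 11 were higher and 2 lower by library totals, and 1 was lower without RP22 replicate 1. CDKN1A, which encodes the CDK inhibitor p21, stood at 509, 713 and 593 CPM with AA147 against 99.5, 108 and 94.5 CPM with RP22, with no overlap (log2 fold change 2.59 ± 0.13, adjusted p = 6.9e-06). FAS, a death receptor, stood at 46.6, 54.1 and 41.8 CPM with AA147 against 8.73, 9.26 and 7.56 CPM with RP22 (log2 fold change 2.48 ± 0.13, adjusted p = 7.9e-06). PHLDA3, a repressor of AKT, changed by 1.79 log2 units, and MDM2, the ubiquitin ligase of p53, by 1.21 log2 units. The 3 that did not pass included CCNG1, at -0.25 log2 units and lower without RP22 replicate 1 (-0.33), and TP53INP1, at 0.25 log2 units, negative by library totals and higher without AA147 replicate 3 (0.35).

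Among 16 G1 cyclins and CDK inhibitors, 5 were higher and 8 lower. CDKN2B, which encodes p15, stood at 538, 614 and 521 CPM with AA147 against 54.8, 72.6 and 58.7 CPM with RP22, an about 9-fold rise (log2 fold change 3.17 ± 0.13, adjusted p = 2.4e-06). CDKN2A, its neighbour in the genome, was also higher at much lower values, 9.09, 9.57 and 8.21 CPM with AA147 against 1.1, 2.7 and 2.16 CPM with RP22 (log2 fold change 2.16 ± 0.31, adjusted p = 0.00062). CDKN1C, which encodes p57 from an imprinted locus, fell, with 22.0, 6.38 and 9.38 CPM with AA147 against 142, 78.0 and 91.8 CPM with RP22 (log2 fold change -3.04 ± 0.51, adjusted p = 0.0039), and without AA147 replicate 1 its fold change was -3.70. Cyclin D1 (CCND1) did not pass (adjusted p = 0.28, and lower without AA147 replicate 1, at -0.79), and cyclin D2 (CCND2) rose by 1.08 log2 units, with an adjusted p of 0.057 by library totals, which also left 2 genes of this list higher and 10 lower.

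Genes of Nodal, activin and TGF-beta signalling changed in both directions. Of 28 tested, 16 were higher and 9 lower. INHBA, the subunit of activin A, stood at 160.1, 215 and 213 CPM with AA147 against 10.6, 9.08 and 10.2 CPM with RP22 (log2 fold change 4.30 ± 0.14, adjusted p = 1.7e-06). TGFB2 stood at 1052, 1014 and 878 CPM with AA147 against 111, 136 and 129 CPM with RP22 (log2 fold change 2.97 ± 0.11, adjusted p = 2.1e-06). GDF3, a Nodal-like ligand of stem cells, lacked reads with AA147 against 125 with RP22 and was at least 29.9-fold lower. TDGF1, the coreceptor of Nodal, was lower on 4 reads with AA147 against 609 with RP22 (log2 fold change -6.64 ± 0.95, adjusted p = 0.0013), or -7.85 without AA147 replicate 3. TGFBR2 did not pass (0.31 log2 units, adjusted p = 0.35, -0.13 by library totals) and was higher without RP22 replicate 1, at 0.71.

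BMP genes moved mostly downward, with 4 higher and 12 lower of 22 (median -0.59). ID2, a direct target of BMP signalling, stood at 10.8, 3.57 and 7.63 CPM with AA147 against 81.6, 90.3 and 77.3 CPM with RP22 (log2 fold change -3.49 ± 0.32, adjusted p = 0.00021). SMAD9, a transducer of the pathway, stood at 2.99, 4.72 and 2.23 CPM with AA147 against 24.2, 28.1 and 27.3 CPM with RP22 (adjusted p = 3.6e-05). BAMBI, a receptor decoy that damps it, was higher at 382, 405 and 459 CPM with AA147 against 185, 130.4 and 132 CPM with RP22 (log2 fold change 1.48 ± 0.15, adjusted p = 0.00016), as was the receptor BMPR2 (1.32 log2 units).

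More WNT, FGF and Notch genes were lower than higher. In the WNT list 9 were higher and 16 lower of 34, and the higher members included the antagonist SFRP1. SFRP1, a secreted inhibitor of the pathway, and DKK3, of the Dickkopf family, rose by 1.78 log2 units and 2.87 log2 units. DKK3 stood at 602, 696 and 606 CPM with AA147 against 78.5, 88.2 and 94.2 CPM with RP22. Inhibitors did not all rise: SFRP4 was lower (-5.61 log2 units, adjusted p = 7.7e-05), and SFRP2 did not pass (-0.95 log2 units, adjusted p = 0.21). WNT9A rose by 2.89 log2 units on 276 and 52 reads. WNT8B had 0 reads with AA147 against 2344, at least 560-fold lower (adjusted p = 0.012), a call lost without RP22 replicate 3 (adjusted p = 0.059). RSPO2, a secreted amplifier of WNT signalling, stood at 28.8, 0.128 and 0.117 CPM with AA147 against 104, 65.8 and 71.8 CPM with RP22 and did not pass (adjusted p = 0.10). It was lower without AA147 replicate 1, at -9.21.

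In the FGF list 18 of 21 were lower and 1 higher. FGFR1 stood at 64.4, 46.6 and 39.8 CPM with AA147 against 129, 185 and 203 CPM with RP22 (log2 fold change -1.78 ± 0.24, adjusted p = 0.00096), and FGF13, a member that stays in the cell and binds sodium channels, changed (log2 fold change -5.39 ± 0.16, adjusted p = 1.5e-06). The gene higher in this list was FGF1 (1.71 log2 units). In the Notch list 10 of 14 were lower and 1 higher (median -1.47, or -2.06 without AA147 replicate 1). The ligand gene DLL3 was lower (log2 fold change -4.04 ± 0.55, adjusted p = 0.00062), and the target gene HEYL stood at 1.37, 0.128 and 0.352 CPM with AA147 against 27.0, 19.7 and 19.4 CPM with RP22 (log2 fold change -5.13 ± 0.49, adjusted p = 0.00014), or -6.41 without AA147 replicate 1. NOTCH2 was the member higher by TMM (0.35 log2 units), with -0.10 by library totals; 2 genes were higher without AA147 replicate 2 or without RP22 replicate 3.

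Retinoic acid, PDGF and IGF genes split within their lists. CYP26B1, which breaks retinoic acid down, rose to 25.1, 42.3 and 47.0 CPM from 2.66, 5.93 and 6.4 CPM (log2 fold change 2.92 ± 0.37, adjusted p = 0.00076), while 4 were higher and 8 lower of 18 in the list (5 lower without AA147 replicate 2 or 3). NR2F1, a nuclear receptor that retinoic acid induces, fell (log2 fold change -5.86 ± 0.91, adjusted p = 0.0035), with -6.66 without AA147 replicate 1. Its close relative NR2F2 was higher by TMM (log2 fold change 0.20 ± 0.07, adjusted p = 0.029) and lower by library totals, at -0.25 (adjusted p = 0.0073), and lost its call without any 1 of AA147 replicates 1, 2 and 3 or RP22 replicates 2 and 3.

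The ligand PDGFB stood at 129, 125 and 126 CPM with AA147 against 36.3, 26.6 and 26.7 CPM with RP22 (log2 fold change 2.09 ± 0.12, adjusted p = 1.1e-05) and PDGFC rose by 1.26 log2 units. The receptor PDGFRA stood at 11.2, 3.57 and 3.99 CPM with AA147 against 123, 44.9 and 60.8 CPM with RP22 (log2 fold change -3.61 ± 0.63, adjusted p = 0.0050), or -4.32 without AA147 replicate 1. Of the 9 PDGF and KIT genes 5 were higher and 2 lower, 1 lower when any 1 replicate 2 or 3 of either group was left out, and 4 lower without replicate 1 of both groups or by library totals. Of 10 IGF genes 6 were higher and 1 lower under both scalings. IGFBP3 and IGFBP7, secreted binders of IGF, stood at 2107, 3202 and 2776 CPM with AA147 against 439, 445 and 439 CPM with RP22 and at 1277, 1576 and 1694 CPM with AA147 against 90.3, 118 and 130.2 CPM with RP22. Their fold changes were 2.61 log2 units and 3.75 log2 units. IGF1 rose from 1.93, 1.26 and 1.41 to 13.8, 23.9 and 27.7 CPM (log2 fold change 3.82 ± 0.32, adjusted p = 4.8e-05). IGF2, the ligand with most reads, was 3734, 3200 and 3630 CPM with AA147 against 5183, 2562 and 2687 CPM with RP22, which overlapped (0.02 log2 units, -0.42 by library totals), and was higher without RP22 replicate 1, at 0.44.

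Most targets of YAP and TEAD rose, while YAP1 itself was slightly lower. Of 16 genes 14 were higher and 1 lower (median 0.99). CTGF, a secreted matricellular protein, stood at 1728, 1679 and 1416 CPM with AA147 against 201, 287 and 221 CPM with RP22 (log2 fold change 2.77 ± 0.15, adjusted p = 9.7e-06), and its relative CYR61 changed (log2 fold change 2.50 ± 0.13, adjusted p = 7.3e-06). ANKRD1, a nuclear protein of stretched muscle, stood at 920.2, 1284 and 1154 CPM with AA147 against 63.0, 86.5 and 69.9 CPM with RP22 (log2 fold change 3.94 ± 0.17, adjusted p = 6.1e-06). The receptor tyrosine kinase AXL changed (log2 fold change 2.01 ± 0.08, adjusted p = 3.0e-06). The call of YAP1 (log2 fold change -0.26 ± 0.07, adjusted p = 0.012) was lost without AA147 replicate 3 or RP22 replicate 2 (adjusted p = 0.053 and 0.054) and in a fit of all 9 libraries (0.074), and 2 genes were lower without RP22 replicate 1.

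The actin and adhesion genes gave the highest median of the 51 lists. Of 30 focal adhesion and stress fibre genes 29 were higher and 1 lower (median 1.66; 28 and 1 by library totals). FLNA, which crosslinks actin, stood at 4994, 4991 and 5626 CPM with AA147 against 1703, 1594 and 1485 CPM with RP22 (log2 fold change 1.71 ± 0.10, adjusted p = 1.1e-05). TPM1, a tropomyosin, stood at 3434, 4263 and 4303 CPM with AA147 against 793, 999 and 902 CPM with RP22 (log2 fold change 2.16 ± 0.13, adjusted p = 1.3e-05), and TGFB1I1, a paxillin relative at focal adhesions, changed (log2 fold change 2.83 ± 0.19, adjusted p = 3.6e-05). FHL1 was the member that fell (log2 fold change -2.73 ± 0.39, adjusted p = 0.0016). Of 12 smooth muscle markers 6 were higher, 1 was lower and 5 did not pass (median 0.53). By library totals 4 were higher and 2 lower (median 0.08), so this list shifted less than the adhesion genes. The summed level, to which abundant members add most, was 3260 to 3543 CPM with AA147 and 616 to 905 CPM with RP22. Of these 12 markers 0 lacked a read in either group. Their part in the adhesion result was not tested. CNN1 stood at 295, 337 and 366 CPM with AA147 against 26.6, 34.4 and 26.5 CPM with RP22, while MYH11 and MYOCD, which define mature smooth muscle and were picked after their values were seen, had log2 fold changes of 0.51 and 0.50 (both near 0.05 by library totals) and did not pass.

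Integrins divided, with 9 higher and 4 lower of 18. ITGB6, the partner of alpha V that frees latent TGF-beta, stood at 2408, 3417 and 3336 CPM with AA147 against 352, 427 and 427 CPM with RP22 (log2 fold change 2.92 ± 0.16, adjusted p = 8.7e-06). ITGB1, the most widely shared beta subunit, changed (log2 fold change 1.67 ± 0.15, adjusted p = 6.5e-05). ITGA4, which binds VCAM1 and fibronectin, stood at 1.99, 0.383 and 0.704 CPM with AA147 against 111, 38.0 and 38.5 CPM with RP22 (log2 fold change -5.91 ± 0.81, adjusted p = 0.0019), with -6.79 without AA147 replicate 1 and -5.18 without RP22 replicate 1.

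**Figure D4:**
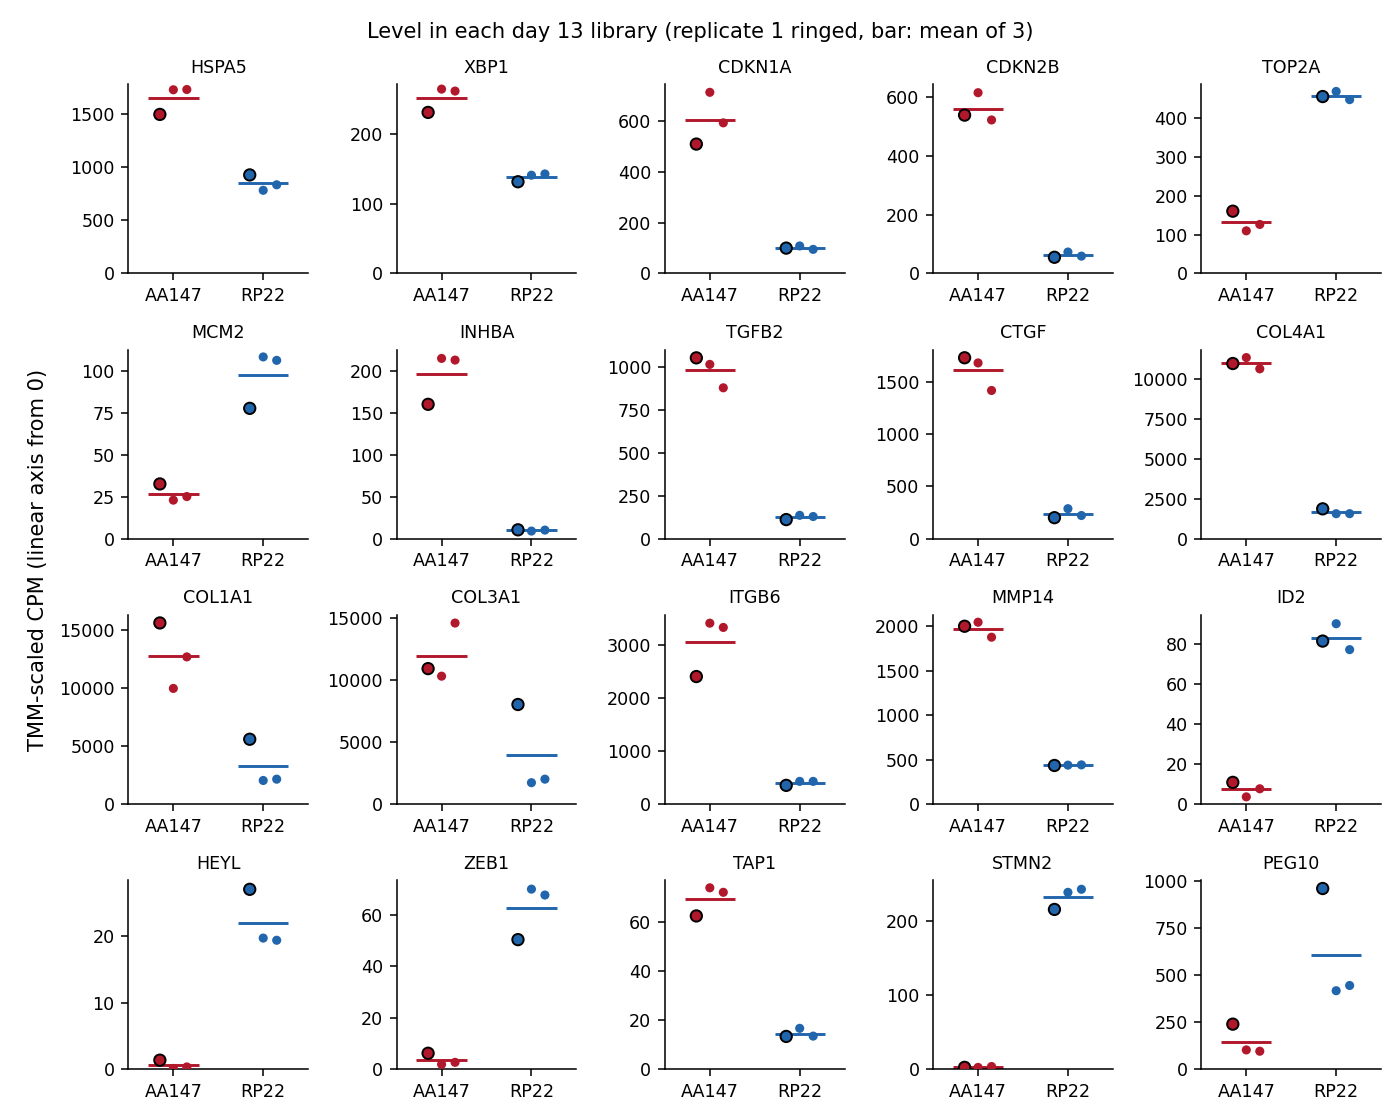
TMM-scaled CPM (linear axis from 0) of 20 genes in each of the 3 AA147 (red) and 3 RP22 (blue) libraries, with bars at the means and replicate 1 ringed. In all 20 panels the groups are apart, 13 higher and 7 lower with AA147, although COL3A1 did not pass the test. The 20 were picked from the named genes, and the groups were apart for 69.9% of all tested genes. With RP22, COL3A1, COL1A1 and PEG10 are highest in replicate 1.

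Chains of type IV collagen were among the basement membrane genes that rose, and a laminin and a nidogen among those that fell. Of 23 genes 13 were higher and 5 lower (3 lower without AA147 replicate 3). COL4A1 and COL4A2, which assemble into 1 trimer, stood at 10989, 11362 and 10656 CPM with AA147 against 1872, 1568 and 1571 CPM with RP22 and at 8615, 8704 and 8441 CPM with AA147 against 1673, 1409.5 and 1408 CPM with RP22. Both rose, COL4A1 with log2 fold change 2.72 ± 0.11, adjusted p = 2.9e-06 and COL4A2 with log2 fold change 2.52 ± 0.11, adjusted p = 3.3e-06. COL4A4, a chain of the specialised network of kidney and lung, rose about 25-fold from a low level, at 88.1, 145 and 119 CPM with AA147 against 3.95, 4.59 and 5.24 CPM with RP22 (log2 fold change 4.67 ± 0.22, adjusted p = 1.0e-05). LAMA4 and NID2 fell. LAMA4, a laminin chain of vessels and muscle, stood at 2.12, 1.02 and 0 CPM with AA147 against 70.1, 15.6 and 18.0 CPM with RP22 (log2 fold change -5.05 ± 1.11, adjusted p = 0.012, or -6.09, -4.44 and -4.00 without AA147 replicate 1, AA147 replicate 3 and RP22 replicate 1). NID2 stood at 68.7, 18.6 and 20.5 CPM with AA147 against 639, 184 and 223 CPM with RP22 (log2 fold change -3.28 ± 0.81, adjusted p = 0.019). Without AA147 replicate 1 it was -4.14, without RP22 replicate 1 -2.48, and without AA147 replicate 3 its adjusted p was 0.058.

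Results for interstitial collagens varied with RP22 replicate 1. COL3A1 stood at 10932, 10321 and 14612 CPM with AA147 against 8034, 1720.3 and 2005 CPM with RP22, and did not pass (adjusted p = 0.091). Without RP22 replicate 1 its log2 fold change was 2.70 in place of 1.61, and it passed. COL1A1 stood at 15619, 9971 and 12690.0 CPM with AA147 against 5585, 2028 and 2141 CPM with RP22 (log2 fold change 1.97 ± 0.46, adjusted p = 0.012, or 2.63 without RP22 replicate 1). COL6A3 went the other way, at 310.2, 48.1 and 90.4 CPM with AA147 against 1818, 388 and 479 CPM with RP22, with an adjusted p of 0.082, and was lower without AA147 replicate 1, at -3.68. COL11A2 was lower (log2 fold change -4.06 ± 0.21, adjusted p = 9.0e-06). Of the 16 genes 6 were higher and 4 lower, 8 lower without replicate 1 of both groups, and the median of -0.46 became 0.06 without RP22 replicate 1.

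Most genes that process collagen, and 7 of 14 that cleave matrix or inhibit its cleavage, were higher. Of 21 procollagen processing genes 16 were higher and 2 lower (11 and 3 by library totals). LOXL2, which crosslinks collagen, stood at 942, 909.9 and 913 CPM with AA147 against 198, 155 and 152 CPM with RP22 (log2 fold change 2.45 ± 0.12, adjusted p = 5.5e-06). PLOD2, the lysyl hydroxylase that favours stable crosslinks, changed (log2 fold change 2.16 ± 0.19, adjusted p = 0.00012), and SERPINH1, the collagen chaperone of the ER, rose as well (log2 fold change 1.18 ± 0.20, adjusted p = 0.0020). Of those 14 metalloproteinases and inhibitors 4 were lower. MMP14, a membrane-bound collagenase, stood at 1998, 2043 and 1874 CPM with AA147 against 433, 437 and 439.6 CPM with RP22 (log2 fold change 2.18 ± 0.08, adjusted p = 1.9e-06), and MMP2, which MMP14 activates, at 2032, 2023 and 1940.4 CPM with AA147 against 587, 438 and 448 CPM with RP22 (log2 fold change 2.03 ± 0.13, adjusted p = 1.3e-05).

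Epithelial and mesenchymal genes did not separate into opposite directions. Of 16, 7 were higher and 6 lower, with a median of 0.25 that was -0.21 by library totals. The epithelial cadherin CDH1 stood at 954, 932 and 869 CPM with AA147 against 443, 494 and 533 CPM with RP22 (log2 fold change 0.91 ± 0.09, adjusted p = 0.00010), and the mesenchymal filament VIM at 1848, 1579.9 and 1481 CPM with AA147 against 1051, 974 and 860.3 CPM with RP22 (log2 fold change 0.77 ± 0.11, adjusted p = 0.00073), so both rose. ZEB1, a repressor of CDH1, stood at 6.22, 1.91 and 2.7 CPM with AA147 against 50.4, 70.0 and 67.7 CPM with RP22 (log2 fold change -4.11 ± 0.37, adjusted p = 0.00019, or -4.74 without AA147 replicate 1). SNAI1 fell (-3.12 log2 units, or -3.96 without AA147 replicate 1), while SNAI2, a gene of the same family, rose (log2 fold change 1.54 ± 0.36, adjusted p = 0.014). Of 20 keratins, claudins and related genes 10 were higher and 4 lower. KRT8 and KRT18, partners in simple epithelia, rose by 1.47 log2 units and 1.38 log2 units, with KRT18 at 1888, 1885 and 1867 CPM with AA147 against 732, 752 and 679 CPM with RP22. CLDN1, a tight junction protein, fell to 1.24, 1.15 and 0.821 CPM from 33.4, 33.3 and 26.8 CPM (log2 fold change -4.85 ± 0.19, adjusted p = 2.4e-06).

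Of 15 amnion and trophectoderm markers 5 were higher and 5 lower, shares near the background. GABRP, a GABA receptor subunit found in amnion, stood at 2485, 3992 and 4482 CPM with AA147 against 573, 778 and 827 CPM with RP22 (log2 fold change 2.33 ± 0.25, adjusted p = 0.00030), and KRT7 changed (log2 fold change 1.57 ± 0.11, adjusted p = 1.9e-05). CDX2, a transcription factor of trophectoderm, was lower on 9 reads against 257 (log2 fold change -4.31 ± 0.69, adjusted p = 0.0013), or -6.68 without AA147 replicate 1 and -3.71 without AA147 replicate 3. GATA2 fell (log2 fold change -2.31 ± 0.27, adjusted p = 0.00040), and TFAP2A did not pass (-0.01 log2 units, adjusted p = 0.92, -0.46 by library totals). The summed level of the list was 5518 to 7685 CPM with AA147 and 2406 to 2584 CPM with RP22.

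Antigen presentation and lysosomal genes were mostly higher. Of 11 MHC class I genes 8 were higher and 0 lower (6 and 0 by library totals). TAP1, which pumps peptides into the ER, stood at 62.6, 74.1 and 72.3 CPM with AA147 against 13.4, 16.7 and 13.5 CPM with RP22 (log2 fold change 2.26 ± 0.12, adjusted p = 7.3e-06), and TAPBP, which loads them, changed (log2 fold change 1.35 ± 0.08, adjusted p = 1.1e-05). HLA-C stood at 127, 128 and 129 CPM with AA147 against 60.8, 71.9 and 70.2 CPM with RP22 (log2 fold change 0.92 ± 0.08, adjusted p = 5.7e-05), although reads of the near-identical HLA genes may be shared among them. Of 27 lysosomal genes 22 were higher and 3 lower (13 and 7 by library totals). CTSB, a cathepsin, stood at 1199.5, 1189 and 1316 CPM with AA147 against 573, 479.6 and 504 CPM with RP22 (log2 fold change 1.25 ± 0.09, adjusted p = 2.9e-05), and CTSC, another, fell (log2 fold change -1.79 ± 0.36, adjusted p = 0.0071).

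Semaphorin, ephrin and Eph receptor genes, which guide axons and vessels, gave 12 higher and 18 lower of 38 (median -0.58). SEMA5A, a membrane semaphorin, changed (log2 fold change 1.93 ± 0.10, adjusted p = 7.9e-06), as did the receptor EPHA7 in the other direction, at 1.49, 1.4 and 0.587 CPM with AA147 against 85.4, 105 and 107 CPM with RP22.

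Sterol and sugar metabolism genes changed in both directions. Of 23 cholesterol genes 13 were higher and 2 lower (median 0.38; 1 lower without AA147 replicate 3), but 3 were higher and 6 lower by library totals (median -0.07). MSMO1, a sterol oxidase of cholesterol synthesis, stood at 207, 264 and 241 CPM with AA147 against 102, 83.1 and 102 CPM with RP22 (log2 fold change 1.31 ± 0.12, adjusted p = 6.8e-05). Among 20 glycolysis genes 9 were higher and 5 lower (median 0.28, and -0.17 by library totals). PFKP, a phosphofructokinase, changed (log2 fold change 1.82 ± 0.10, adjusted p = 8.8e-06), and SLC2A3, a glucose transporter, also did (log2 fold change 1.16 ± 0.09, adjusted p = 2.9e-05). ENO2, the enolase of neurons, fell (log2 fold change -3.58 ± 0.35, adjusted p = 0.00023).

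Genes of chromatin repression were lower or did not pass, with 1 exception. Of 28 Polycomb and DNA methylation genes 14 were lower and 1 higher (26 and 0 by library totals). DNMT3B, the methyltransferase most expressed in stem cells, stood at 22.9, 20.8 and 20.6 CPM with AA147 against 66.9, 119 and 146 CPM with RP22 (log2 fold change -2.37 ± 0.30, adjusted p = 0.00095). DNMT1, which copies methylation after replication, changed (log2 fold change -0.72 ± 0.07, adjusted p = 0.00011), and CBX2, a reader in Polycomb complexes, fell (log2 fold change -2.37 ± 0.23, adjusted p = 0.00016). PCGF5 was the member that was higher (log2 fold change 0.77 ± 0.18, adjusted p = 0.0060), and it did not pass by library totals (adjusted p = 0.17).

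HOX genes were weakly expressed, and 15 of 39 could be tested. Of these, 6 were lower and 1 higher. HOXA3 was the higher one, at 6.72, 4.72 and 8.56 CPM with AA147 against 3.49, 1.53 and 1.41 CPM with RP22 (log2 fold change 1.64 ± 0.40, adjusted p = 0.0084), and HOXB3 stood at 7.84, 5.36 and 8.8 CPM with AA147 against 39.0, 15.5 and 18.0 CPM with RP22 (log2 fold change -1.71 ± 0.41, adjusted p = 0.011). HOXC8, at 6.85, 0 and 0 CPM with AA147 against 33.3, 4.77 and 6.57 CPM with RP22, was higher in replicate 1 than in the other libraries of both groups and did not pass (-2.70 log2 units). Without replicate 1 of both groups it passed, at -8.81. The list median of -2.97 ranged from -1.30 without RP22 replicate 1 to -4.82 without AA147 replicate 1, and without replicate 1 of both groups it was -4.98, and 11 were lower and 2 higher.

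**Figure D5:**
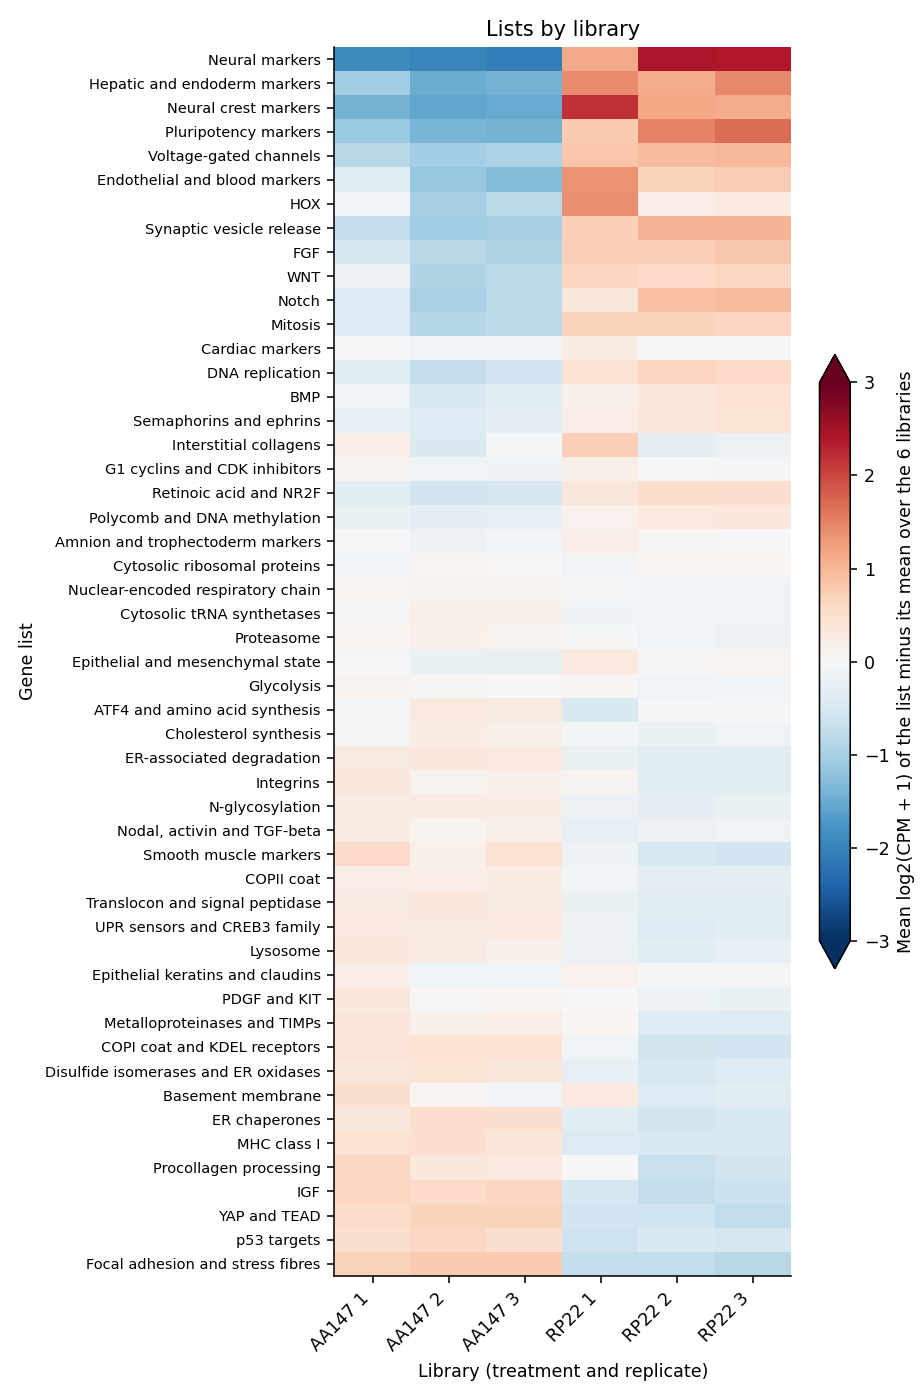
Mean log2(CPM + 1) of each of the 51 lists in each library, minus its mean over the 6 libraries, with red above and blue below that mean. The neural, hepatic and pluripotency lists are low in all 3 AA147 libraries, while the HOX and interstitial collagen lists are highest in RP22 replicate 1, and the HOX, WNT and endothelial lists are less low in AA147 replicate 1 than in the other AA147 libraries.

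Genes of neuronal function were among the deepest falls. Of 21 synaptic vesicle genes 16 were lower and 1 higher (median -2.31), and of 25 voltage-gated channels 21 were lower and 3 higher (median -3.14). The higher channel calls were unstable, at 0 without AA147 replicate 1, AA147 replicate 2 or RP22 replicate 2 and 1 without replicate 3 of either group, and the channel median was -3.79 without AA147 replicate 1. SYT11, a synaptotagmin, stood at 17.7, 10.7 and 8.56 CPM with AA147 against 90.5, 98.8 and 101 CPM with RP22 (log2 fold change -2.97 ± 0.24, adjusted p = 9.5e-05). SYT4 had 3 reads with AA147 and 2062 with RP22, RP22 over AA147 by a ratio of 493 (95% counting interval 168 to 2391). CPLX2, a complexin that controls vesicle fusion, had 0 reads with AA147 against 377, at least 90.1-fold lower. RIMS2 was the synaptic gene that rose by TMM (log2 fold change 0.72 ± 0.17, adjusted p = 0.0089), and it did not pass by library totals (adjusted p = 0.24).

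Markers of neurons moved with these genes. In the neural list 16 of 18 were lower and 1, TUBB3, was higher by TMM only (-0.10 by library totals; 0 were higher when any 1 AA147 library or RP22 replicate 3 was omitted). The list's median was -7.04, or -6.78 with genes lacking AA147 reads at their bounds. The summed level over 20 neural markers was 1108 to 1318 CPM with AA147 and 1670 to 2447 CPM with RP22. Most of the AA147 sum came from NES and from TUBB3 (395, 407 and 430 CPM), which were not lower. NEUROD1 and FABP7 had no read in any AA147 library. Both calls were lost without RP22 replicate 2 or 3 (adjusted p of 0.062 and 0.089 for NEUROD1, 0.060 and 0.054 for FABP7). STMN2, a tubulin-binding protein of growing axons, stood at 2.61, 2.55 and 3.75 CPM with AA147 against 216, 239 and 243 CPM with RP22 (log2 fold change -6.28 ± 0.14, adjusted p = 1.1e-06). NEFM, a neurofilament, stood at 2.61, 2.04 and 0.704 CPM with AA147 against 487, 286 and 311 CPM with RP22 (log2 fold change -7.67 ± 0.42, adjusted p = 4.0e-05). NES, a filament of neural progenitors that other dividing cells also make, stood at 866, 643 and 699.9 CPM with AA147 against 593, 663 and 628 CPM with RP22, and did not pass (adjusted p = 0.12, 0.23 log2 units, -0.23 by library totals). The part of neural cells in the synaptic and channel results was not tested.

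Neural crest, hepatic and endothelial markers were mostly lower too. Of 12 neural crest markers 10 were lower, and 2 had no reads with AA147, FOXD3 and PAX7. The summed level of the list was 1290 CPM in RP22 replicate 1 against 631 CPM in the lowest RP22 library. SNAI2 was the crest marker that rose, and a further marker was higher without RP22 replicate 1. Of 14 hepatic and endoderm markers 12 were lower, and APOA2, TTR, FOXA2 and HNF4A had no reads with AA147. APOA2 was at least 45.2-fold and HNF4A at least 32.3-fold lower. With those 4 at their bounds the list's median was -4.90, and -5.93 as fitted, with -7.79 without AA147 replicate 1, -4.77 without AA147 replicate 2 and -5.27 without RP22 replicate 3. Of 9 endothelial and blood markers tested 7 were lower, and PECAM1 and CD34 were among 8 of 16 without a read with AA147.

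Most pluripotency markers were lower with AA147. Of 12 tested 11 were lower, with a median of -3.28, or -4.86, -3.90 and -4.02 when AA147 replicates 1, 2 and 3 were omitted in turn and -4.34 when RP22 replicate 1 was. POU5F1, the OCT4 gene, stood at 0.498, 0.255 and 0.469 CPM with AA147 against 7.63, 23.3 and 29.6 CPM with RP22 (log2 fold change -5.58 ± 0.71, adjusted p = 0.00071). NANOG had 0 reads with AA147 against 80, too few to be tested. LIN28A stood at 17.7, 5.87 and 7.39 CPM with AA147 against 161, 203 and 203 CPM with RP22 (log2 fold change -4.19 ± 0.41, adjusted p = 0.00042, or -4.81 without AA147 replicate 1). L1TD1 fell less, at 135, 126 and 105 CPM with AA147 against 169, 201 and 204 CPM with RP22 (-0.65 log2 units, adjusted p = 0.0017). ZFP42, which is also transcribed in other early lineages, was the exception (log2 fold change 0.51 ± 0.09, adjusted p = 0.0016), with 0.06 by library totals.

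Among 15 cardiac markers 4 were higher and 4 lower, shares at or under the background. ACTC1, the cardiac actin that early smooth muscle also makes, stood at 2339, 2472 and 2593 CPM with AA147 against 309.9, 509.7 and 396 CPM with RP22 (log2 fold change 2.61 ± 0.18, adjusted p = 2.7e-05), and MYL7, the atrial light chain, at 138, 181 and 155 CPM with AA147 against 41.4, 23.1 and 23.9 CPM with RP22 (log2 fold change 2.42 ± 0.25, adjusted p = 0.00035). The sarcomere heavy chains went the other way. MYH6 had 1 read with AA147 against 485 with RP22, RP22 over AA147 by a ratio of 348 (95% counting interval 62.1 to 13761), and MYH7 had no reads against 64, at least 15.3-fold lower.

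Large rises outside these lists included surface and matrix proteins. GPR116, an adhesion receptor, had the highest fold change among called genes whose groups did not overlap and whose mean with AA147 was at least 20 CPM, at 16.4, 27.6 and 42.8 CPM with AA147 against 1.29, 0.989 and 0.831 CPM with RP22 (log2 fold change 4.80 ± 0.43, adjusted p = 0.00013). TGFBI, a matrix protein that TGF-beta induces, stood at 2525, 3767 and 3883 CPM with AA147 against 209, 237 and 269.7 CPM with RP22 (log2 fold change 3.83 ± 0.20, adjusted p = 1.0e-05), and CCDC80, another secreted matrix protein, at 1672, 2698 and 3049 CPM with AA147 against 186, 164 and 182 CPM with RP22 (log2 fold change 3.80 ± 0.24, adjusted p = 2.7e-05). HSPB7, a small heat shock protein of heart muscle, rose by 3.83 log2 units. FN1, the fibronectin gene, took most reads of the genes at least 2-fold higher, 1.69 to 1.94% of each AA147 library and 0.505 to 0.576% of each RP22 library.

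Of the genes at least 2-fold lower, the paternally expressed imprinted genes PEG10 and PEG3 were among the 8 with the highest mean CPM with RP22. PEG3 stood at 127, 67.3 and 85.4 CPM with AA147 against 506, 452 and 458 CPM with RP22 (log2 fold change -2.34 ± 0.23, adjusted p = 0.00024). PEG10 stood at 239.8, 103 and 95.8 CPM with AA147 against 960.0, 417 and 445 CPM with RP22 (log2 fold change -2.06 ± 0.54, adjusted p = 0.023), a call lost without AA147 replicate 2, AA147 replicate 3 or RP22 replicate 1, with adjusted p of 0.058, 0.068 and 0.069. PRTG, an early surface protein of the immunoglobulin family, stood at 117, 91.2 and 119 CPM with AA147 against 471, 570.4 and 636 CPM with RP22 (log2 fold change -2.36 ± 0.15, adjusted p = 1.7e-05). ISLR2, a surface protein of sensory and retinal axons, had 743 reads over the RP22 libraries, 22.4, 20.7 and 22.4 CPM, and none with AA147, at least 178-fold lower.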

How the data were processed

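RNA from HUES9 cells was sequenced by the submitters. Per the deposited table's column headers, the authors gave expected counts (estimated counts, with 0.914% of cells not whole and a floor of 0.05 where a gene had no read) and RPKM for 27772 rows. The build was GRCh37, per the submitters' processing notes, while what aligned and counted the reads is not given in the sources used here. Mouse feeder reads could not be separated from human ones. Expected counts were rounded, floor values were set to 0 and 42 repeated symbols were summed, which left 27730 symbols. After edgeR's filterByExpr, 14293 genes were tested in the 3 AA147 against the 3 RP22 day 13 libraries with the quasi-likelihood F test on TMM-scaled counts (edgeR 4.0.16, R 4.3.3) and Benjamini-Hochberg adjustment at 0.05. The common biological coefficient of variation was 15.4%. P-values take the replicates as independent experiments, as the labels say.

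The alternatives were library totals, no filter, DESeq2 1.42.0, limma 3.58.1 on log2(RPKM + 0.1) or log2(RPKM + 1), all 9 libraries in 1 fit, a test against a 1.5-fold change, a replicate block and the omission of each library. A bound for a gene with no reads used a floor of 3 reads over the 3 libraries of a group, and ratios of few reads have 95% intervals; both cover counting error only. Promoters were windows of 250 bases before each RefSeq start (GRCh38.p14, matched by symbol for 11580 tested genes), searched on both strands for the letters given, where N is any base. The named genes were the largest and most abundant changes, and in each list the most abundant and most changed members, the strongest of the opposite direction and abundant members that did not pass. Some genes this rule names are left out. Members and lists were chosen with earlier results of these data known. A few of the named genes are not reported here.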

Additional observations from a re-analysis of the deposited data

How the results depend on the processing

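The genes higher with AA147 and the genes lower with AA147 numbered 4264 and 4600 in the reported fit. They numbered 1897 and 8527 with libraries scaled by totals, 1898 and 8506 with limma on log2(RPKM + 0.1), 1898 and 8501 on log2(RPKM + 1), 1887 and 9403 without a filter on low RPKM, and 1664 and 2489 when tested against a 1.5-fold change. Leaving out single libraries gave 3754 to 4616 higher and 3769 to 4831 lower, and leaving out replicate 1 of both groups gave 4824 and 5352. With a replicate block the counts were 4126 and 4551. Correlations of the deviations of same-numbered libraries were 0.214, 0.165 and 0.0746. Replicate 1 of either group gave -0.223 to -0.121 with replicates 2 and 3 of the other group. AA147 replicate 3 gave 0.137 with RP22 replicate 2. Deviations were taken from each group's own mean, and replicate 1 stood apart in both groups. These values therefore cannot tell whether the numbers pair the samples. The reported fit left them unpaired. NR2F2 was lower with libraries scaled by totals (-0.25) and with limma (-0.21 under all 3 settings), and EIF2AK3 was lower with libraries scaled by totals (-0.19). Depth limited genes with few reads: those with no reads in a group are given as bounds, and those with 1 to 3 as ratios with a counting interval.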

Other observations

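Gene families grouped by the start of their symbols, and chosen after their values were seen, gave further groups. Of 10 annexins, which bind membranes in the presence of calcium, 8 were higher with AA147 and 1 lower, with a median log2 fold change of 1.00 (0.55 by library totals). Of 11 CHMP genes, which encode subunits of the ESCRT-III complex, 10 were higher and 0 lower (median 0.45), and 4 were higher by library totals. Of 13 IFT genes, which carry cargo along cilia, 10 were lower and 1 higher (median -0.65). Of 12 SRSF genes, which encode splicing factors, 10 were lower and 1 higher (median -0.35). Kinesin genes with symbols starting in KIF gave 23 lower and 5 higher of 35, and SOX transcription factor genes gave 12 lower and 2 higher of 16.

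Loss of detection was uneven between the groups. No read in any AA147 library and at least 30 reads over the RP22 libraries were counted for 163 genes, and the opposite for 1, the readthrough transcript TMED7-TICAM2.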
